A study of Sus scrofa with 8 samples.

Results

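Genes of inducible zinc-finger and nuclear-receptor transcription factors were examined in left ventricular RNA of gene-edited pigs and wild-type (WT) pigs from a study that models long QT syndrome, a disorder of delayed cardiac repolarization. The 10 genes were chosen by symbol: EGR1, EGR2 and EGR3 of the early growth response family, NR4A1, NR4A2 and NR4A3 of the NR4A orphan nuclear receptors, and KLF2, KLF4, KLF6 and KLF10 of the Krüppel-like factors. All 10 were present among the 14718 genes of the deposited table, and 9 passed the filter on low values, which asked for 10 normalized counts or more in 4 or more libraries. EGR3 did not pass and is given by its reads only. The mutant group held 4 pigs, of which replicates 1 to 3 carry a genotype label of KCNH2 mutation and replicate 4 one of KCNH3 mutation, while the series design speaks of KCNH2 alone. The WT group held 4 pigs labelled wt. The labels name no allele, strain, sex, age, founder line, collection time or sequencing batch, and whole ventricular tissue was sampled. P-values therefore measure the spread between these libraries only.

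EGR factors bind GC-rich promoter elements and are switched on within minutes by growth factors, stretch and adrenergic signals, largely through ERK kinases and serum response factor, and they induce their own NAB corepressors. NR4A receptors have no known classical hormone ligand, so their activity follows their abundance, and they are induced by cyclic AMP, calcium and stress signals. KLF2 and KLF4 are best known in endothelial cells, where laminar flow induces them through ERK5 and MEF2 factors, KLF6 responds to injury, and KLF10 was first described as a gene induced by TGF-beta. In tissue, transcripts of such genes are also sensitive to how the tissue was taken and handled, which the labels do not describe.

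Values are normalized counts, that is, reads of a gene divided by the library's size factor. Libraries held 15.9 to 22.4 M reads (M, the SI prefix mega). Reads of the 13 mitochondrially encoded genes made up 15.9% to 27.5% of mutant libraries and 31.7% to 87.9% of WT libraries, which left 12.7 to 16.2 M nuclear reads in mutant libraries and 2.53 to 12.9 M in WT libraries. In WT replicate 3, the shallowest for nuclear genes, 1 read equals 4.84 normalized counts, against 0.611 to 1.21 in the other libraries. Of 8 cardiomyocyte markers 7 were in the table, without TTN, and their summed normalized count was 507347 to 693650 in mutant and 455865 to 538904 in WT libraries. KCNH2 itself had 1538 ± 495 normalized counts in mutant and 901 ± 754 in WT libraries (SD, n = 4), with overlapping groups, and gene-level counts do not show the edit. Only libraries of the same group were compared as pairs. Mutant replicates 3 and 4 were the closest such pair, with a chi-square per gene of 12.6 between their reads against 53.4 for the next closest. They thus differed by more than sampling noise and were counted separately.

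EGR1, EGR2 and NR4A1 were lower in every mutant library than in any WT library, whereas the other 6 measured members had overlapping groups. Of the 9 measured members 8 had a negative log2 difference and 1, NR4A2, a positive one; over all 11660 genes tested 43.1% were negative. The median log2 difference of the 9 was -0.48, beside 0.12 for all genes tested. Complete separation with mutant libraries below WT libraries was seen in 3 of the 9 members and in 5.22% of all genes tested, and complete separation in the other direction in 0 of the 9 and in 6.17% of all genes. No member passed limma with Benjamini-Hochberg adjustment over all genes, and neither did any other gene (0%, smallest adjusted p = 0.142). At an unadjusted limma p under 0.05, the same 3 members were lower (6.80% of all genes) and none was higher (7.06% of all genes). The authors' deposited table calls these 3 lower and none of the 10 higher, where 3.23% of 12763 genes with an adjusted p were called lower and 1.32% higher.

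**Figure D1:**
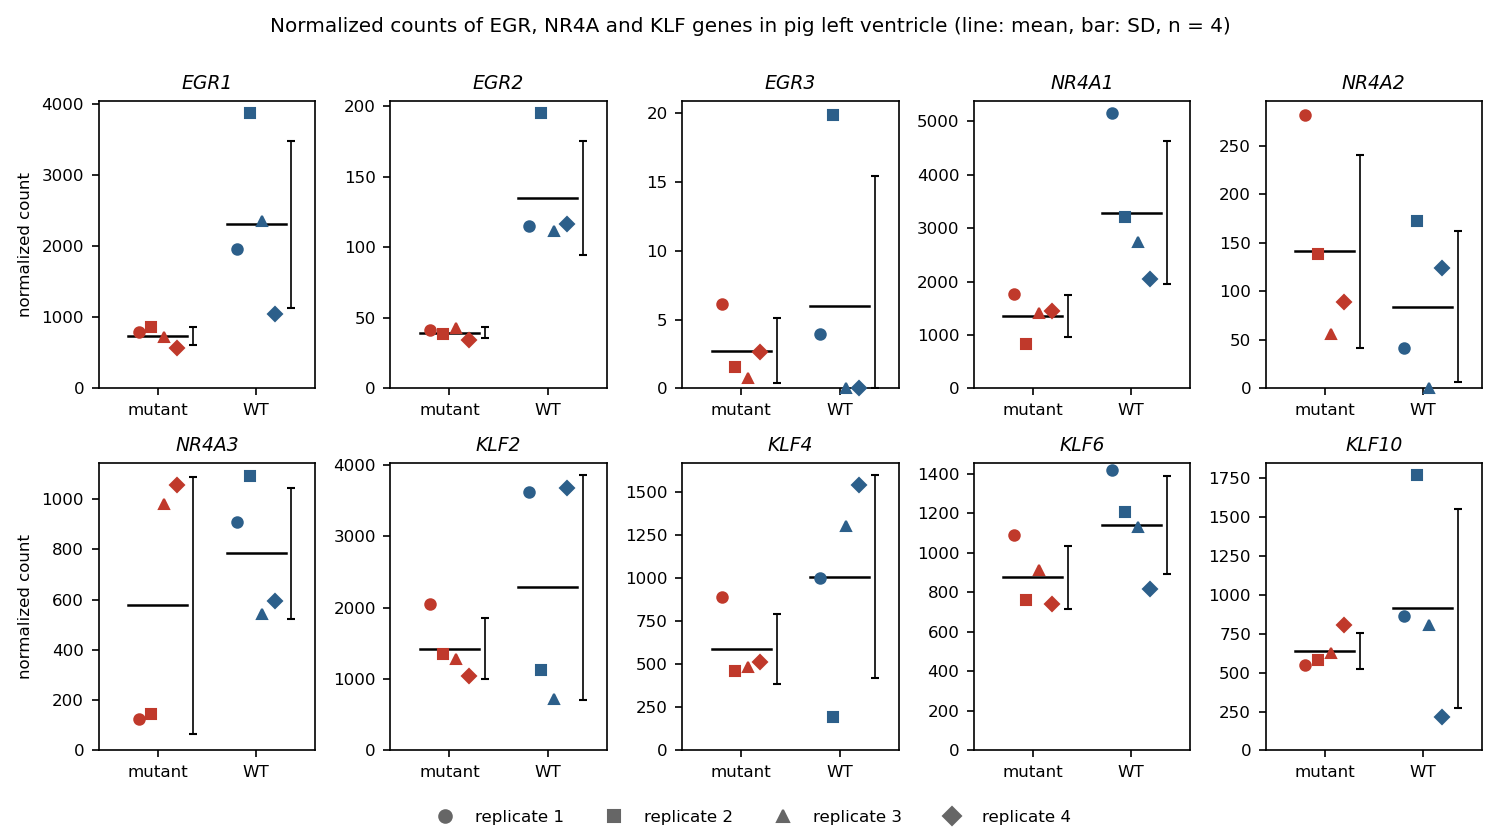
Normalized count (vertical axes, linear from 0) of each of the 10 genes in the 4 mutant libraries (red, left) and the 4 WT libraries (blue, right), with the group mean as a line and 1 SD as a bar, cut at 0; symbols mark the replicate. The groups do not overlap for EGR1, EGR2 and NR4A1, and for NR4A3 mutant replicates 1 and 2 lie far below the other 6 libraries.

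EGR1, a zinc-finger activator that is among the first genes transcribed after a stimulus, had 794, 857, 727 and 561 normalized counts in mutant replicates 1 to 4, against 1961, 3869, 2350 and 1045 in WT replicates 1 to 4. The mutant libraries lay within a 1.53-fold range, while the WT libraries spanned 3.70-fold, with WT replicate 2 at the top and WT replicate 4 nearest to the mutants. The means were 735 ± 127 in mutant and 2306 ± 1177 in WT libraries (SD, n = 4), a ratio of 0.319. The log2 difference on the log2(normalized count + 1) scale was -1.52 ± 0.37 (SE; limma adjusted p = 0.212; lower in 4 of 4 mutant libraries). The authors' deposited table gives -1.65 with an adjusted p of 0.00412.

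EGR2, a close relative of EGR1 best known for its role in myelination, had 41.5, 38.7, 42.9 and 34.4 normalized counts in mutant replicates 1 to 4, against 115, 195, 111 and 116 in WT replicates 1 to 4. Each mutant library held 51 to 68 reads of EGR2, so the narrow mutant range of 1.25-fold rests on few reads, and the value of WT replicate 3 rests on 23. The means were 39.4 ± 3.74 in mutant and 135 ± 40.5 in WT libraries (SD, n = 4), a ratio of 0.293. Its log2 difference of -1.71 ± 0.40 (SE; limma adjusted p = 0.202; lower in 4 of 4 mutant libraries) had the smallest p of the 9 members, rank 103 of all 11660 genes. The authors' deposited table gives -1.79 with an adjusted p of 6.21e-05.

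EGR3, the third of the family, was close to the limit of detection. It had 10, 2, 1 and 4 reads in mutant replicates 1 to 4 and 5, 23, 0 and 0 reads in WT replicates 1 to 4. A count of 0 allows up to 3 reads, which is 14.5 normalized counts in WT replicate 3 and 3.64 in WT replicate 4. No difference of EGR3 was detectable at this depth, and its highest value, like those of EGR1 and EGR2, was in WT replicate 2.

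NR4A1, also called NUR77, is a nuclear receptor induced by beta-adrenergic stimulation in heart and skeletal muscle. It had 1762, 825, 1409 and 1451 normalized counts in mutant replicates 1 to 4, against 5159, 3218, 2732 and 2045 in WT replicates 1 to 4. The groups did not overlap, although mutant replicate 1 and WT replicate 4 were close to each other. The means were 1361 ± 391 in mutant and 3289 ± 1336 in WT libraries (SD, n = 4), a ratio of 0.414. The log2 difference was -1.24 ± 0.34 (SE; limma adjusted p = 0.228; lower in 4 of 4 mutant libraries), and the authors' deposited table gives -1.27 with an adjusted p of 0.0251. Its highest library was WT replicate 1, not WT replicate 2 as for the EGR genes.

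NR4A2, or NURR1, a receptor essential for dopamine neurons, was the member with a positive difference. It had 282, 138, 55.8 and 89.4 normalized counts in mutant replicates 1 to 4, against 41.3, 172, 0 and 124 in WT replicates 1 to 4. The groups overlapped widely. The log2 difference of 1.95 ± 1.46 (SE; limma adjusted p = 0.542; 95% interval -1.32 to 5.22) rested on the 0 of WT replicate 3, where no read allows up to 14.5 normalized counts, and without that library it was 0.30.

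NR4A3, or NOR1, the third receptor of the family, split the mutant group. It had 125, 147, 982 and 1057 normalized counts in mutant replicates 1 to 4, against 911, 1091, 543 and 594 in WT replicates 1 to 4. Mutant replicates 1 and 2 lay below all WT libraries, and mutant replicates 3 and 4 lay within the WT range. The log2 difference was -1.01 ± 0.71 (SE; limma adjusted p = 0.519; 95% interval -2.61 to 0.58). The 3 NR4A genes thus had different patterns: the mutant library lowest in NR4A1 was replicate 2, in NR4A2 replicate 3 and in NR4A3 replicate 1.

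**Figure D2:**
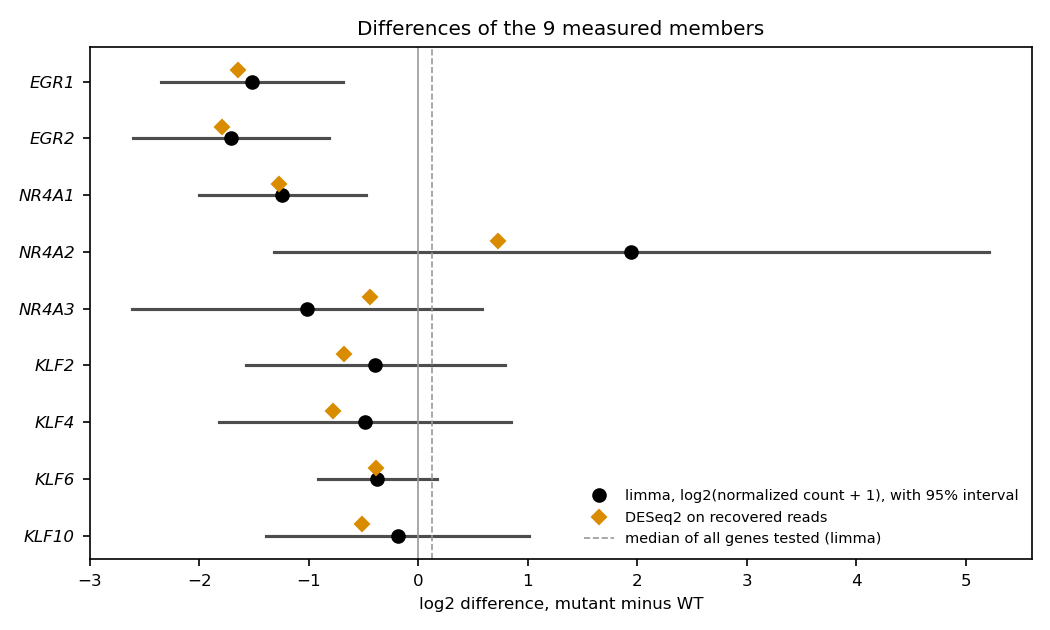
Log2 difference (horizontal axis, mutant minus WT) of the 9 measured genes: black points and lines are limma estimates with 95% intervals, orange diamonds DESeq2 estimates from recovered reads, and the dashed line the median of all genes tested (0.12). The unadjusted intervals of EGR1, EGR2 and NR4A1 lie below 0, and the intervals of the other 6 genes include 0.

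The 4 KLF genes all had negative log2 differences with intervals that included 0. KLF2, which maintains the quiescent state of endothelium, had 2044, 1344, 1278 and 1040 normalized counts in mutant replicates 1 to 4, against 3616, 1126, 727 and 3669 in WT replicates 1 to 4. WT replicates 1 and 4 lay above every mutant library, WT replicate 3 lay below every one, and WT replicate 2 lay within the mutant range. The log2 difference of KLF2 was -0.39 ± 0.53 (SE; limma adjusted p = 0.734; 95% interval -1.58 to 0.79).

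KLF4, which shares endothelial roles with KLF2 and also acts in smooth muscle and in pluripotent cells, had 891, 460, 485 and 512 normalized counts in mutant replicates 1 to 4, against 999, 194, 1303 and 1538 in WT replicates 1 to 4. All mutant libraries lay below 3 of the WT libraries and above WT replicate 2. The log2 difference was -0.48 ± 0.60 (SE; limma adjusted p = 0.709; 95% interval -1.82 to 0.85). It was -1.16 without WT replicate 2, -0.24 without WT replicate 3 and -0.16 without WT replicate 4, and 0.36 without both of the last.

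Endothelial marker transcripts also differed between these libraries. The summed normalized count of 9 endothelial markers (PECAM1, CDH5, VWF, KDR, TIE1, TEK, EGFL7, ERG and ESAM), all of which were measured, was 17844 to 26958 in mutant and 9551 to 46853 in WT libraries. In WT replicates 1 to 4 the sums were 22120, 9551, 10924 and 46853. The libraries with the lowest sums, WT replicates 2 and 3, also had KLF2 below the other WT libraries, and WT replicate 4 was highest in the sum, in KLF2 and in KLF4. WT replicate 3 did not follow in KLF4, which was 1303 there. WT replicate 1 did not follow in KLF2, which was 3616 there, with a sum inside the mutant range. In mutant libraries KLF2 was 1040 to 2044. Fewer endothelial cells and less KLF2 or KLF4 RNA per cell cannot be told apart in bulk tissue, and the part of cell composition in these values was not tested.

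KLF6, an injury-induced factor found in many cell types, had 1089, 760, 915 and 743 normalized counts in mutant replicates 1 to 4, against 1418, 1205, 1134 and 819 in WT replicates 1 to 4. WT replicate 4 lay within the mutant range and the other 3 WT libraries above it. The log2 difference was -0.37 ± 0.24 (SE; limma adjusted p = 0.488; 95% interval -0.92 to 0.17), the narrowest interval of the 9 members. KLF10, a repressor induced by TGF-beta, had 546, 584, 623 and 807 normalized counts in mutant replicates 1 to 4, against 866, 1768, 809 and 217 in WT replicates 1 to 4. The WT libraries lay on both sides of the mutant ones. The log2 difference was -0.19 ± 0.54 (SE; limma adjusted p = 0.882; 95% interval -1.39 to 1.02), 0.24 without WT replicate 2 and -0.76 without WT replicate 4.

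Which library was left out decided the estimates of several members. The signs of EGR1, EGR2 and NR4A1 could not change in this way, because their groups did not overlap. With each library left out in turn, the limma difference ranged from -1.85 to -1.22 for EGR1, from -1.79 to -1.52 for EGR2 and from -1.44 to -0.996 for NR4A1. Without mutant replicate 4, the library labelled KCNH3, these were -1.39, -1.65 and -1.29. Without WT replicate 4, the members lower at an unadjusted p under 0.05 numbered 5, since KLF6 (-0.53) and KLF10 (-0.76) joined, beside 6.75% of all genes in that fit. The same 5 then lay without overlap below the WT libraries, as did 8.04% of all genes. For KLF10 this rested on 807 normalized counts in mutant replicate 4 against 809 in WT replicate 3. That gap is smaller than the 4.84 normalized counts of 1 read in WT replicate 3. DESeq2 on the recovered reads called EGR1, EGR2 and NR4A1 lower, where it called 3.24% of all genes with an adjusted p lower. Leaving out each library in turn, DESeq2 called EGR2 in 8 of 8 fits, EGR1 in 7 and NR4A1 in 4. Over all genes, those fits called from 95 lower, without mutant replicate 4, to 663, without WT replicate 1. With all 8 libraries 414 were called lower. The call of EGR1 was lost without mutant replicate 4 (DESeq2 adjusted p = 0.0680), and that of NR4A1 without mutant replicate 2, 3 or 4 or WT replicate 1 (DESeq2 adjusted p = 0.0952, 0.119, 0.132 and 0.0643). Without WT replicate 2 DESeq2 also called KLF4 lower, at -1.12 (DESeq2 adjusted p = 0.0357), in a fit that called 473 genes lower. By edgeR's quasi-likelihood test no member and no gene passed, and the same 3 members were lower at an unadjusted p under 0.05 (8.87% of all genes).

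**Figure D3:**
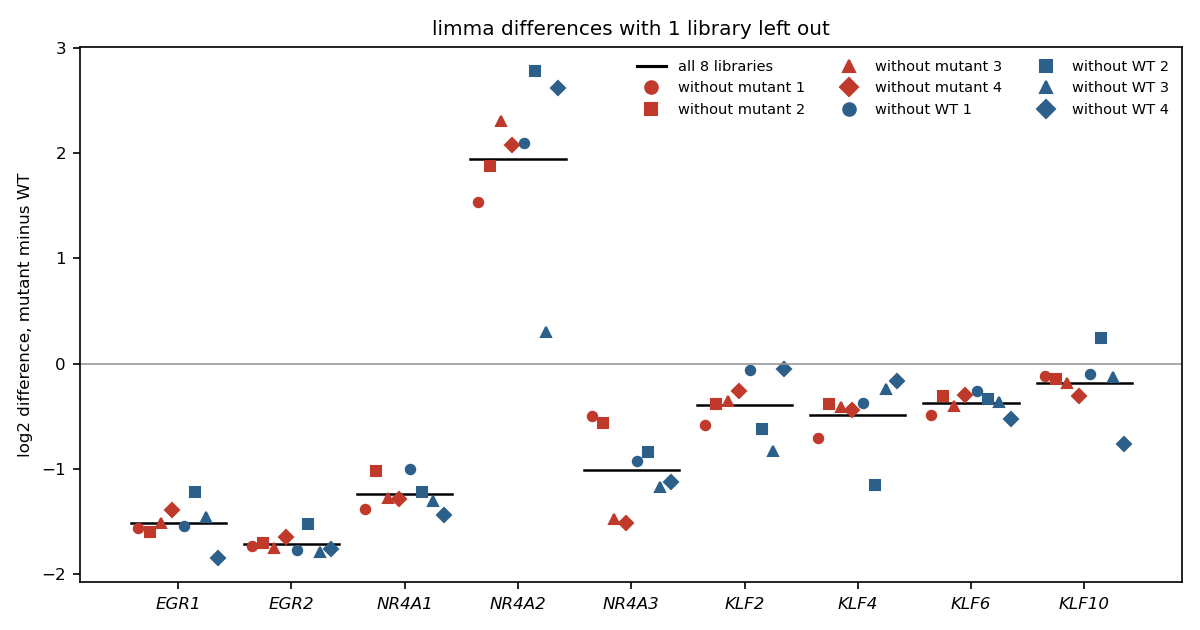
Limma log2 difference (vertical axis, mutant minus WT) of the 9 measured genes with all 8 libraries (black line) and with each mutant library (red) or WT library (blue) left out. Values for EGR1, EGR2 and NR4A1 lie between -1.85 and -0.996, whereas NR4A2 reaches 0.30 without WT replicate 3 and KLF10 is above 0 without WT replicate 2.

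The mitochondrial share of reads, like EGR1, EGR2 and NR4A1, was without overlap between the groups, at 27.5%, 19.9%, 16.7% and 15.9% in mutant replicates 1 to 4 and 33.5%, 31.7%, 87.9% and 65.2% in WT replicates 1 to 4. Without the WT libraries of highest share, replicates 3 and 4, the differences were -1.92 for EGR1, -1.91 for EGR2 and -1.63 for NR4A1, and the share of the remaining WT libraries was still above that of every mutant library. The part of the mitochondrial share in these results was not tested. Scaled to nuclear reads alone, EGR1 had 58.0 to 88.8 reads per M nuclear reads in mutant and 114 to 391 in WT libraries, and the differences of the 3 genes were -1.43, -1.63 and -1.16. WT replicate 2, highest in EGR1, EGR2, NR4A3 and KLF10, also had the most neutrophil marker RNA. The summed normalized count of 4 neutrophil markers in the table, of 6 listed, was 14.1 to 320 in mutant libraries, 2198 in WT replicate 2 and 63.1 to 150 in the other WT libraries, with S100A8 and MPO at 0 in some libraries. Without WT replicate 2 the differences of EGR1, EGR2 and NR4A1 were -1.22, -1.52 and -1.22. The part of neutrophil content in these results was not tested. The erythroid marker sum was 2517 to 2993 in mutant libraries and 17699, 31804, 29091 and 49.7 in WT replicates 1 to 4, and its part in these results was not tested.

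Genes upstream of these factors had differences in both directions. Of 15 measured genes of the ERK and SRF input, 4 had negative and 11 positive differences, with a median of 0.43. At an unadjusted p under 0.05, 1 was higher, the MAP kinase kinase gene MAP2K1, where 7.06% of all genes were higher. MAP2K1 had 893 ± 182 normalized counts in mutant and 507 ± 212 in WT libraries (SD, n = 4; log2 difference 0.87; limma adjusted p = 0.280). In the ERK5 and MEF2 input to KLF2 and KLF4, 3 of 6 genes were negative and 3 positive, with a median of 0.06. At an unadjusted p under 0.05, 1 was lower (6.80% of all genes) and 1 higher (7.06% of all genes). Over all genes tested, 5.22% lay without overlap lower in mutant libraries and 6.17% higher. MAPK7, which encodes ERK5, had 342 to 473 normalized counts in mutant and 547 to 780 in WT libraries, without overlap (log2 difference -0.53; limma adjusted p = 0.331). MEF2C, a MADS-box factor of muscle and endothelium, went the other way, with 1074 to 1317 in mutant and 409 to 1032 in WT libraries, also without overlap (log2 difference 0.69; limma adjusted p = 0.329).

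Partners and relatives of the factors also had differences in both directions. The 5 NAB and RXR partner genes had a median of 0.16, with 2 negative and 3 positive and none at an unadjusted p under 0.05. NAB2, an EGR-induced corepressor of EGR proteins, had 117, 123, 236 and 232 normalized counts in mutant replicates 1 to 4, against 202, 715, 213 and 109 in WT replicates 1 to 4 (log2 difference -0.52; limma adjusted p = 0.658). Like EGR1, it was highest in WT replicate 2, but its groups overlapped. The retinoid receptor gene RXRG, whose product can pair with NR4A1 and NR4A2, had 1280 in mutant replicate 1 and 57.7 to 112 in the other mutant libraries, against 33.9 to 69.9 in WT libraries (log2 difference 1.74; limma adjusted p = 0.393). Among 13 measured KLF and SP relatives outside the 10 genes, 6 were negative and 7 positive, with a median of 0.01. None was lower at an unadjusted p under 0.05, and 2 were higher (7.06% of all genes), the repressor gene KLF12 (114 to 201 in mutant and 63.0 to 104 in WT libraries, without overlap; log2 difference 0.95; limma adjusted p = 0.299) and SP1 (log2 difference 0.85; limma adjusted p = 0.320).

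Known targets were mixed. Of 11 measured EGR1 targets 10 were negative and 1 positive, with a median of -0.52, where 43.1% of all genes tested were negative. The list was chosen with earlier results of these data known, so this is a description only, and it includes NAB2, given above. The mean centred log2 value of its genes was 1.39 in WT replicate 2 and -0.11 to 0.24 in the other WT libraries. In mutant libraries it was -0.58 to -0.12. At an unadjusted p under 0.05, 2 were lower, where 6.80% of all genes were. ICAM1, a leukocyte adhesion molecule, had a difference of -2.22 (limma adjusted p = 0.312), with 8854 normalized counts in WT replicate 2 and overlapping groups. The authors' deposited table calls 2 of the 11 lower, ICAM1 among them, and none higher. Of all genes with an adjusted p there, 3.23% were called lower and 1.32% higher. ICAM1 also responds to inflammatory signals, and the neutrophil markers given above were highest in the same WT library. The next highest ICAM1 value, 1492, was in WT replicate 4, where the neutrophil marker sum was 63.1. The part of inflammatory signals in these values was not tested.

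Of the 6 measured glucose-use genes known as NR4A1 targets in mouse muscle, 3 were negative and 3 positive, with a median of 0.20, and 2 were higher at an unadjusted p under 0.05 (7.06% of all genes). The phosphofructokinase gene PFKM had 9440 to 20922 normalized counts in mutant and 2204 to 7111 in WT libraries, without overlap (log2 difference 1.30; limma adjusted p = 0.267). The glycogen phosphorylase gene PYGM had a difference of 1.14 with overlapping groups (limma adjusted p = 0.306). The 5 endothelial targets of KLF2 and KLF4 had a median of 0.08, with none at an unadjusted p under 0.05. The endothelial nitric oxide synthase gene NOS3 had 519, 438, 343 and 344 normalized counts in mutant replicates 1 to 4, against 450, 263, 644 and 1696 in WT replicates 1 to 4. NOS3, like KLF4, was lowest in WT replicate 2 and highest in WT replicate 4 (log2 difference -0.57; limma adjusted p = 0.597). Other targets of this list did not share that pattern in full. ASS1 was also highest in WT replicate 4 (587 normalized counts) but lowest in mutant replicate 2 (66.8), with a log2 difference of -1.01 (limma adjusted p = 0.397). PTGDS was lowest in WT replicate 4 (14.6) and highest in WT replicate 3 (281), with a log2 difference of 0.81 (limma adjusted p = 0.632). Of 7 TGF-beta feedback genes, the company of KLF10, 4 were negative and 3 positive, with a median of -0.08. Of these 7, 1 was lower at an unadjusted p under 0.05 (6.80% of all genes), without overlap between groups (5.22% of all genes). The authors' deposited table calls it lower, as it does 3.23% of all genes with an adjusted p. SMAD7, an inhibitor of the TGF-beta receptor, had a difference of -0.71 (limma adjusted p = 0.434), and KLF11, the closest relative of KLF10, one of 0.65 (limma adjusted p = 0.409).

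**Figure D4:**
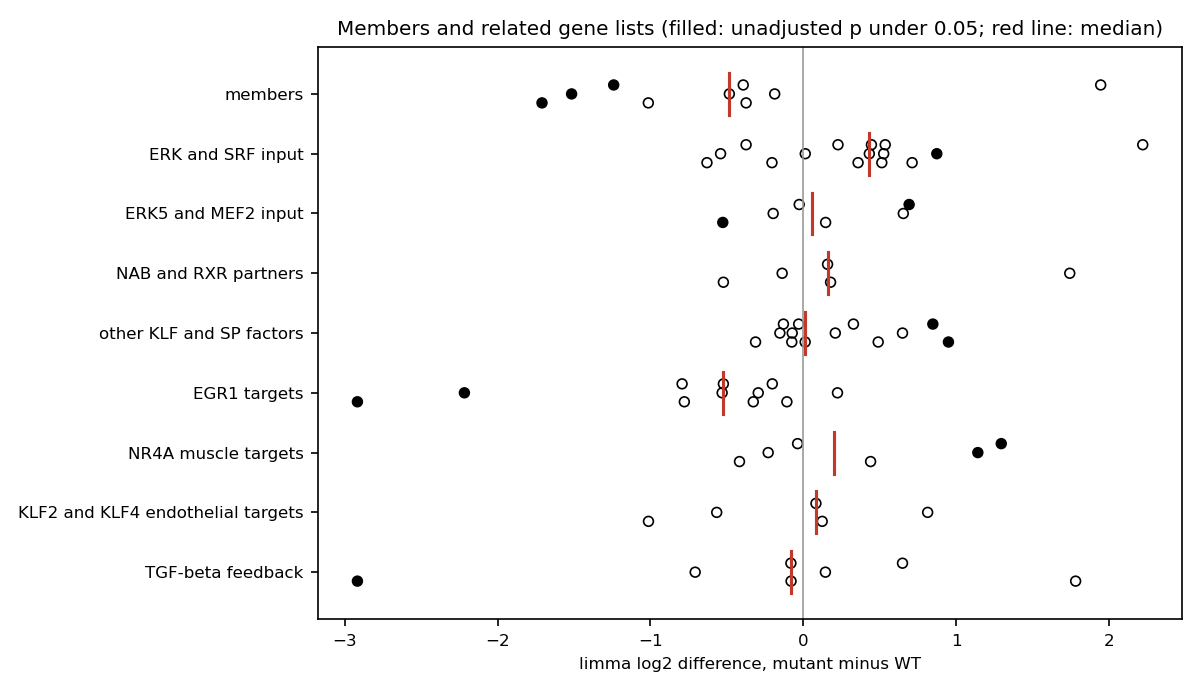
Limma log2 difference (horizontal axis, mutant minus WT) of each measured gene in 9 groups: the 9 measured members and 8 lists of upstream, partner, relative and target genes. Filled points have an unadjusted p under 0.05 and red lines mark medians, which run from -0.52 for EGR1 targets and -0.48 for the members to 0.43 for the ERK and SRF input.

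The genes whose profile over the 8 libraries was most like that of EGR1, NR4A1 or KLF4 were found by the root mean square distance between log2 profiles centred on their own means, among 10121 other genes with a mean normalized count of at least 50. For EGR1 these were BTG3, an antiproliferative gene (distance 0.27), PHLDA1, a growth-factor-induced gene (0.35), and the small GTPase gene RHOC (0.36), against a median distance of 1.07 over all genes. BTG3 had 196 to 252 normalized counts in mutant and 408 to 894 in WT libraries, with its highest value in WT replicate 2 as for EGR1. EGR2 was at a distance of 0.38 from EGR1, and NR4A1 at 0.61.

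For NR4A1 the nearest were ECSCR, an endothelial cell surface gene (0.28), JDP2, a repressor of AP-1 (0.33), and ANGPTL4, an inhibitor of lipoprotein lipase (0.34), against a median of 0.95. ECSCR and JDP2 had their highest values in WT replicate 1 and their lowest in mutant replicate 2, as NR4A1 did. For KLF4 the nearest were RAMP2, a partner of the adrenomedullin receptor (0.12), LY6E, an interferon-inducible surface protein (0.13), and NOSTRIN, a trafficking partner of endothelial nitric oxide synthase (0.22), against a median of 1.08. RAMP2 had 1385, 860, 807 and 735 normalized counts in mutant replicates 1 to 4, against 1469, 327, 2103 and 2235 in WT replicates 1 to 4. It shared with KLF4 the low value in WT replicate 2 and the high values in WT replicates 3 and 4. KLF2 was at 0.90 from KLF4, and NR4A1 at 1.07.

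**Figure D5:**
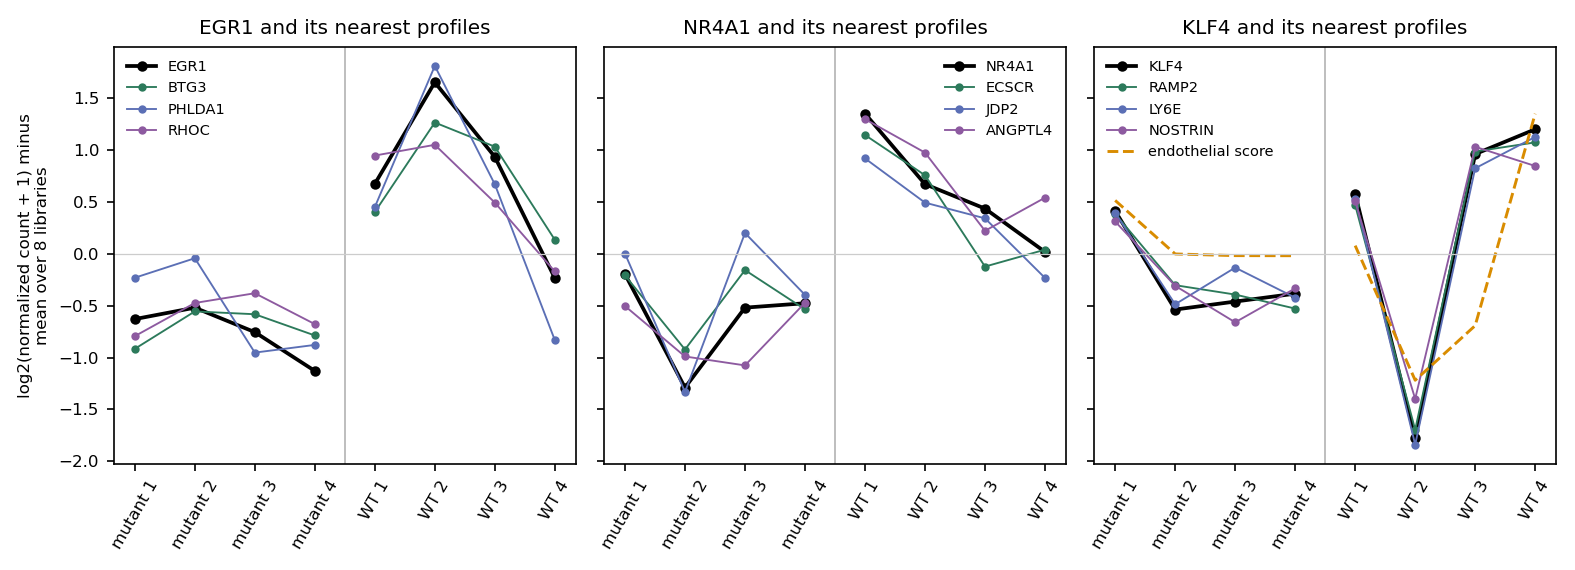
Log2(normalized count + 1) minus the mean over the 8 libraries (vertical axis) for EGR1, NR4A1 and KLF4 (black) and the 3 genes with the nearest profile to each, in mutant and then WT libraries; lines only join the points of a gene, and the dashed line is the mean over 9 endothelial markers. EGR1 and NR4A1 lie lower in mutant libraries, whereas KLF4 and its neighbours are lowest in WT replicate 2.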

How the data were processed

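Per the labels' protocols, polyadenylated left ventricular RNA was sequenced from 8 pigs. The authors deposited 1 table with a signal per gene and library, the read count divided by a size factor, per the file headers and values. It also holds the authors' mean signal, log2 fold change with SE (mutant over WT), Wald score, and raw and adjusted p-value. The submitters' processing notes name DESeq2 without a version and build GRCh38, although the animals are pigs; no coordinates are printed, since neither annotation nor aligner, counter or strand setting is given in the sources used here. All values were whole multiples of 1 read's worth (100%, relative tolerance 1e-06), so reads were recovered. Of 14720 rows, 2 named for an annotation source (0.392% to 0.853% of reads) were left out; 14504 of 14718 genes and all 10 members matched a pig symbol. Floors for 0 reads (3 reads) cover counting error only.

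The main test was limma 3.58.1 (R 4.3.3; trended, robust prior) on log2(normalized count + 1) over 11660 genes, mutant minus WT, with Benjamini-Hochberg adjustment; this scale understates changes of low genes and can overstate those of genes at 0 in a library, as for NR4A2 (1.95 in limma, 0.72 in DESeq2). DESeq2 1.42.0 and edgeR 4.0.16 on recovered reads, TMM, quantile and nuclear-read scaling, pseudocounts of 0.5 and 5, other filters, array weights and left-out libraries were alternatives, and DESeq2 with libraries left out was added after the data were seen. All tools were tested on simulated data. Members and lists were chosen with earlier results of these data known. Named genes are all members, KCNH2, up to 3 genes of smallest p per list and the 3 nearest profiles of EGR1, NR4A1 and KLF4; 1 gene that this rule takes is not reported here. Paralogs of a family may share reads, which makes their values uncertain to that extent.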

Additional observations from a re-analysis of the deposited data

Results flagged for a closer look

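Within groups of 4, values on the log2(normalized count + 1) scale were screened for a highest or lowest library set apart from the rest by a share of the group's range above Dixon's 95% critical value, in 20 groups (10 genes, mutant and WT). Chance alone marks about 1 group in 20, and 2 were marked. KLF4 in mutant replicate 1 was at 891 normalized counts, against 460 to 512 in the other mutant libraries. EGR2 in WT replicate 2 was at 195, against 111 to 116 in the other WT libraries.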

How the results depend on the processing

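Over 19 alternatives to the limma fit, EGR1, EGR2, NR4A1, NR4A3, KLF2 and KLF6 kept a negative and NR4A2 a positive difference. For EGR1, EGR2 and NR4A1, whose groups did not overlap, leaving libraries out could not change the sign. EGR1 ranged from -1.92 to -1.22, EGR2 from -2.01 to -1.52 and NR4A1 from -1.63 to -0.996, with unadjusted p of at most 0.00882, 0.0148 and 0.0168. KLF10 ranged from -0.76 to 0.24 with 1 library left out, reversing without WT replicate 2, and KLF4 reversed to 0.36 without WT replicates 3 and 4 together; the cause was not tested beyond the libraries left out. Genes called numbered 0 in limma, 582 in DESeq2, 3 after quantile normalization, 92 with array weights and 12 without WT replicates 3 and 4, and 0 to 3 with 1 library left out. DESeq2 called 333, 370, 173 and 128 without mutant replicates 1 to 4, and 1027, 705, 591 and 510 without WT replicates 1 to 4. Members called numbered 0 in limma, where no gene was called, and 3 in DESeq2, which called 3.24% of genes with an adjusted p lower. With array weights they numbered 2, EGR1 and EGR2 (limma adjusted p = 0.0339 and 0.0485), where 0.532% of all genes were called lower. With 1 library left out, members called numbered 0 in every limma fit and 1 to 4 in DESeq2, where 95 to 663 genes were called lower. The members' median was -0.97 without WT replicates 3 and 4, and -0.84 to -0.37 with 1 library left out. Members lower at an unadjusted p under 0.05 numbered 3 (6.80% of all genes), and 5 without WT replicates 3 and 4 (7.46%). With 1 library left out they numbered 3 to 5, beside 4.24% to 8.87% of all genes. Those without overlap numbered 3 (5.22% of all genes), 5 without WT replicates 3 and 4, and 3 to 5 with 1 library left out. Leaving libraries out cannot undo a separation, so these counts could only stay or rise. The share of all genes without overlap was otherwise taken only without WT replicate 4 (8.04%), so none stands beside the other counts. The median of all genes was 0.12 in limma, 0.20 with nuclear scaling, 0.16 with TMM, 0.02 with quantile normalization and -0.05 in DESeq2. No paired analysis was possible because the labels number the pigs separately and the groups share no number. Depth limits EGR3, EGR2 and, in WT replicate 3, NR4A2.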
